A study of Botryllus schlosseri with 12 samples.

Results

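The first hours after injury were examined by comparing colonies of Botryllus schlosseri at 6 h post-injury (hpi) with colonies conditioned directly after injury (0 hpi). The comparison takes 6 of the 12 libraries of the study, 3 at 6 hpi and 3 at 0 hpi, and covers every contig that had enough counts to be tested, which were 31383 of the 32561 contigs in the table. At 6 hpi 1452 contigs were higher and 1578 were lower than at 0 hpi. The contig of complement component C3/5 rose 2.68-fold, together with the other 4 contigs that the assembly places beside it. The contig of Coagulation factor XIIIb was 3.36-fold lower, together with the other 3 contigs placed beside it, while the contigs of TIE1/2 and Sox7/17/18 did not pass the test. Contigs that rose gathered 14.2 to 14.7% of all counts of the 6 hpi libraries, against 3.54 to 4.28% in the 0 hpi libraries.

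Botryllus schlosseri is a colonial tunicate, in which many small bodies called zooids lie in a common gelatinous tunic and share a network of blood vessels. After the removal of all zooids and buds new bodies can still form in what remains of the colony, a process called whole-body regeneration. The study followed the transcriptome over the first day of this process to describe how the remaining tissue responds to the injury. All 12 colonies had the same genotype, being cuttings of 1 isogenic strain that were matched for size and kept apart from each other.

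The 6 hpi group consists of colonies whose zooids and buds were all taken out by microsurgery at stage D of the asexual cycle and whose remaining tunic and vasculature stayed in filtered seawater for 6 h. The 0 hpi group had the same strain, stage and surgery and was conditioned without this interval. Both groups are therefore injured, no uninjured colony is among them, and each difference is relative to tissue taken at the time of surgery. Each library comes from a separate cutting, so p-values measure the spread between colonies of 1 genotype. The libraries were made from bulk tissue, which can hold vessel epithelium, tunic cells, blood cells and, as the study describes for this surgery, small remnants of adult zooids on the tunic (epidermis, endostyle and branchial epithelium, muscle). How much of such remnants each colony kept is not known, and in this mixture fewer cells of a type and less RNA per cell cannot be told apart. The groups do not differ in the day of RNA extraction, which was the same for every library.

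A contig is a stretch of transcript assembled from the reads without a genome. The assembler Trinity names each contig by the component it belongs to, a set of contigs linked by shared sequence, by the gene within the component and by the isoform. Kallisto then assigns the reads to contigs, and a read that fits several contigs is divided between them, which leaves estimates that are not whole numbers. The rows carry no gene names, and a contig is given a name only where the study's gene trees pair its identifier with a gene. Tissue markers could not be checked for this reason. Levels are in CPM, the estimated counts relative to the total of a library as scaled by TMM, and are not divided by contig length.

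Total estimated counts were 2397316 to 2693477 per library at 6 hpi and 2949021 to 3992991 at 0 hpi, and the median contig had 29 to 32 counts in a library of 6 hpi and 35 to 47 in a library of 0 hpi. Biological variation between replicates was 0.243 as edgeR's common coefficient. The median log2 fold change over all tested contigs was -0.01, and the median level was 13.1 CPM at 6 hpi and 13.2 CPM at 0 hpi. Differences were tested by edgeR's quasi-likelihood method in a fit of all 12 libraries, in which the 6 later libraries contribute to the estimate of the spread, the scaling and the filter on low counts. A contig counted as changed where the p adjusted after Benjamini and Hochberg was under 0.05 and the log2 fold change was beyond 1 in either direction.

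Of the tested contigs 3030 were called changed (9.65% of all tested), 1452 of them higher at 6 hpi (4.63%) and 1578 lower (5.03%). A further 1218 contigs had an adjusted p under 0.05 by edgeR's test with Benjamini-Hochberg adjustment and a smaller change than the threshold. The higher contigs had a median log2 fold change of 1.58, with quartiles of 1.24 and 2.20, and a median level of 34.4 CPM at 6 hpi and 10.7 CPM at 0 hpi. The lower contigs had a median log2 fold change of -1.76, with quartiles of -2.94 and -1.32, and a median level of 6.67 CPM at 6 hpi and 27.0 CPM at 0 hpi. The small excess of lower contigs turned round with limma-voom (1418 higher and 1281 lower), with the adjusted p as the only threshold (2164 and 2084), and where replicate 1 of 6 hpi (1273 and 1239) or that of 0 hpi (1406 and 1320) was left out, so the direction of the excess is not settled.

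**Figure D1:**
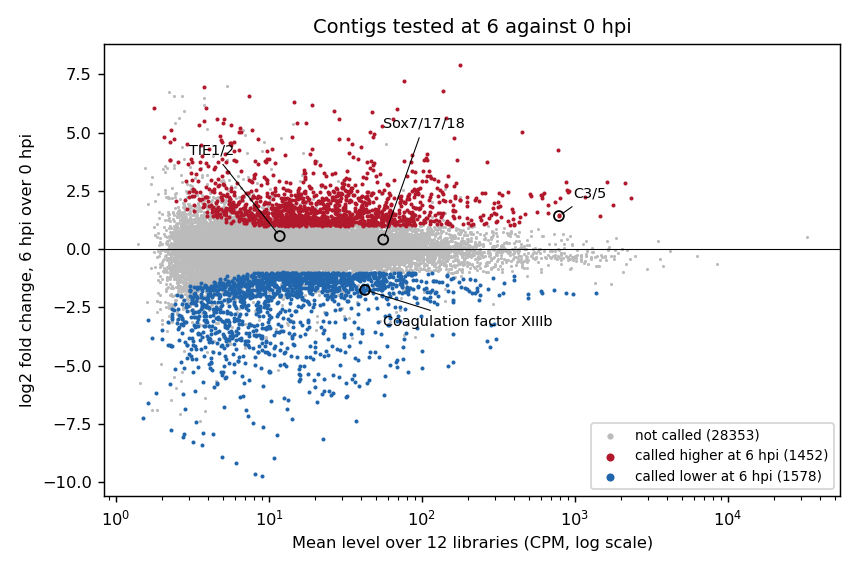
Each point is 1 of the 31383 tested contigs, with its mean level over the 12 libraries on the x axis (CPM, log scale) and its log2 fold change at 6 hpi over 0 hpi on the y axis. Red points are the 1452 contigs called higher at 6 hpi, blue points the 1578 called lower, and circles mark the 4 contigs with a gene name.

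Large changes were more often decreases. More than 4-fold changes were 460 increases and 640 decreases, more than 8-fold changes 147 and 384, and more than 16-fold changes 66 and 202. Beyond 32-fold there were 31 increases and 97 decreases. The same held among contigs with a mean of at least 50 counts over the 6 libraries, where 21 rose and 104 fell by more than 16-fold. The contigs that fell by more than 16-fold belonged to 159 Trinity genes in 115 components, so several of them often belonged to the same gene or component. Those that rose by more than 16-fold belonged to 60 Trinity genes in 46 components.

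Increases and decreases were also spread differently over the range of levels. The tested contigs were divided into 5 bins of nearly equal size by their mean CPM over the 12 libraries. This mean includes the libraries compared, so that a rise or fall by itself can move a contig between bins. The percentages by bin and by rank of this mean are therefore a description. At 0 hpi alone the contigs that rose had the lower median level, 10.7 CPM against 27.0 CPM for those that fell. At 6 hpi the order was reversed, with 34.4 CPM against 6.67 CPM. Both orders go with the choice of the contigs on these same libraries and are a description as well. In the lowest bin 126 contigs (2.01%) were higher and 318 (5.07%) were lower at 6 hpi, whereas in the highest bin 514 (8.19%) were higher and 345 (5.5%) were lower. The percentage of higher contigs was larger in each next bin, with 3.33, 4.6 and 5% in the bins between, while that of lower contigs lay between 4.54 and 5.5% throughout. The standard error of the log2 fold change had a median of 0.549 in the lowest bin and 0.205 in the highest, so that small changes were detectable mainly among contigs with many counts. Among the 1000 contigs of highest mean CPM, 120 were higher (12%) and 58 were lower (5.80%).

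**Figure D2:**
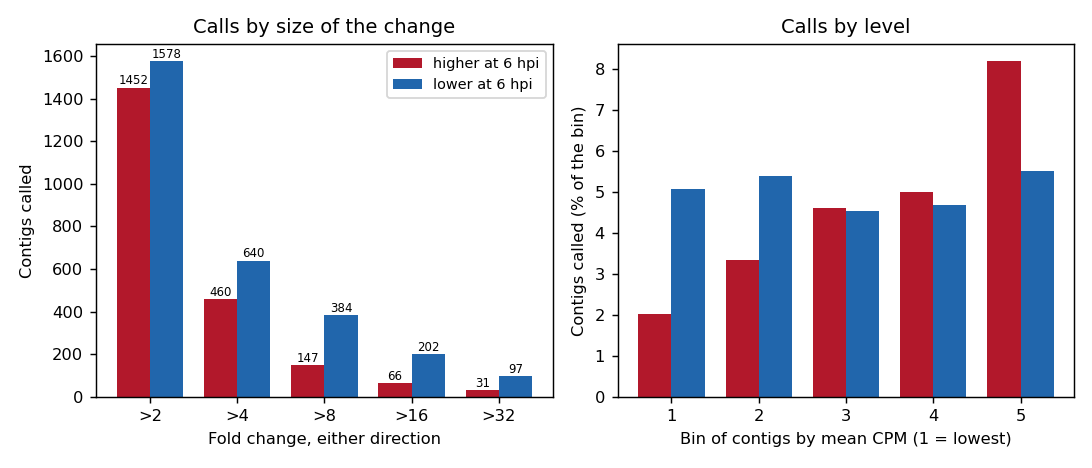
The left panel gives the number of contigs called higher (red) and lower (blue) at 6 hpi beyond each fold change. The right panel gives the percentage of each of the 5 bins of contigs that was called. Bins run from the lowest (1) to the highest (5) mean CPM over the 12 libraries, which include those compared. Decreases outnumber increases 202 to 66 beyond 16-fold, and higher contigs make up 2.01% of the lowest and 8.19% of the highest bin.

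The called contigs account for a large part of each library, which is given as a description because the contigs were chosen on these same libraries. Contigs that rose held 14.7, 14.2 and 14.5% of the estimated counts in the 3 libraries of 6 hpi, against 4.28, 3.54 and 3.76% in those of 0 hpi. Contigs that fell held 2.51, 3.21 and 2.66% at 6 hpi, against 11.4, 10.1 and 9.99% at 0 hpi. The libraries of the later time points, which entered the choice only through the shared fit, held 6.16 to 7.05% of their counts in the contigs that rose at 18 hpi and 7.29 to 7.81% at 24 hpi. They thus lay between the levels of 0 and 6 hpi. In the contigs that fell, 2.53 to 2.72% of counts remained at 18 hpi and 2.54 to 2.61% at 24 hpi, close to the level of 6 hpi.

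**Figure D3:**
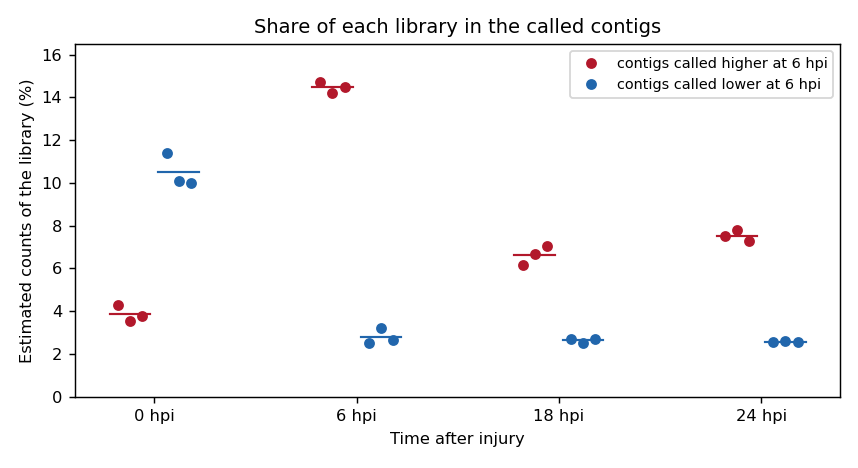
Points are the 12 libraries, 3 at each time after injury, with the percentage of their estimated counts in contigs called higher (red) or lower (blue) at 6 hpi, and bars are means of 3 libraries. The red points reach 14.2 to 14.7% at 6 hpi and lie at 6.16 to 7.81% later, whereas the blue points stay between 2.51 and 3.21% from 6 hpi on.

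Part of the gain lay in few contigs. Over all contigs that rose, the mean level was higher at 6 hpi by 109060 CPM in sum, and 10 contigs of 9 Trinity genes and 5 components contributed 24.3% of this. These 10 contigs held 3.16, 3.07 and 3.18% of the counts in the libraries of 6 hpi, against 0.708, 0.488 and 0.489% in those of 0 hpi. The loss summed to 80762 CPM, of which 10 contigs of 6 components contributed 17.4%. Reaching 50 percent of the change took 59 contigs for the gain and 105 for the loss. With contigs joined by Trinity gene the difference was smaller, as 10 genes contributed 31.6% of the gain and 28.4% of the loss.

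Where a Trinity gene or component had 2 or more called contigs, these were mostly called in the same direction. Of the 3824 Trinity genes with at least 2 tested contigs, 690 had a called contig and 280 had 2 or more. In these 280 the called contigs were all higher in 153 genes, all lower in 118 and in both directions in 9. Every tested contig was called higher in 98 genes and lower in 80. Of the 6920 components with at least 2 tested contigs, 1239 had a called contig and 626 had 2 or more, with 313 all higher, 291 all lower and 22 mixed. The calls therefore represent fewer transcripts than contigs, with 1240 Trinity genes in 795 components for the increases and 1376 Trinity genes in 910 components for the decreases. Contigs of a component share sequence and often reads, so their agreement is not that of independent genes.

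The component with the most increases had 14 tested contigs, all higher at 6 hpi, with log2 fold changes of 2.20 to 3.43. Its contigs summed to 1115, 1376 and 1129 CPM in the libraries of 6 hpi, against 239.6, 169.4 and 258.8 CPM in those of 0 hpi, 5.42-fold more without any overlap. Among the decreases, a component of 23 tested contigs was lower in all of them, with log2 fold changes of -5.26 to -2.35. Its sum was 111.7, 50.5 and 60.2 CPM at 6 hpi, against 2373, 1113 and 896.8 CPM at 0 hpi, 19.7-fold less, and replicate 1 of 0 hpi was far above the other libraries of 0 hpi. Another component had 29 of 36 tested contigs lower and none higher, and summed to 363.4, 208.5 and 298.2 CPM at 6 hpi, against 2276, 2515 and 1849 CPM at 0 hpi. These components were chosen by their number of called contigs. The direction of their sums and the distance between the groups therefore go with this choice and are a description. Over all tested contigs 4.63% were called higher and 5.03% lower. Every library of 6 hpi lay above those of 0 hpi in 15.5% of tested contigs and below them in 15.9%. None of these components has a name in the sources used here.

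Complement is a system of blood proteins that tags and attacks foreign or damaged cells. In vertebrates C3 and C5 are its central components, which are cleaved to release signals that attract immune cells and fragments that bind to surfaces. The contig that the gene trees pair with the tunicate C3/5 is TRINITY_DN18533_c0_g2_i2.p1. It had 995.6, 1038 and 1037 CPM in the libraries of 6 hpi, against 463.5, 282.8 and 399.4 CPM in those of 0 hpi. The libraries of 6 hpi lay close together and far above all libraries of 0 hpi, which spread more widely. Its mean was 1023 ± 24.0 CPM at 6 hpi and 381.9 ± 91.6 CPM at 0 hpi (SD, n = 3 each), and it rose with a log2 fold change of 1.42 (standard error 0.201, adjusted p = 0.000122 by edgeR's test with Benjamini-Hochberg adjustment).

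The C3/5 component has 4 other contigs, all of another Trinity gene. All 4 rose, with log2 fold changes of 1.23 to 1.41, without overlap between the groups (as for 15.5% of all tested contigs in this direction). The most highly counted of them averaged 1852 CPM at 6 hpi and 695.8 CPM at 0 hpi. Summed over the component, the level was 3630, 4045 and 4020 CPM in the libraries of 6 hpi, against 1850, 1180 and 1474 CPM in those of 0 hpi, a ratio of 2.60. The sum averaged 3247 CPM at 18 hpi and 3621 CPM at 24 hpi. Estimates of the C3/5 contig itself were not whole in 10 of the 12 libraries and those of the other 4 contigs in all 12, so the division of reads among them is uncertain, while the sum does not depend on a division within the component. Whether they are isoforms, pieces or related genes of C3/5 is not known from the files.

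Coagulation factor XIII crosslinks fibrin and so stabilizes a clot in vertebrates, where its B chain carries the catalytic A chain in plasma. The contig paired with Coagulation factor XIIIb is TRINITY_DN13609_c0_g3_i1.p1. It had 32.1, 50.1 and 32.8 CPM in the libraries of 6 hpi, against 80.9, 131.8 and 172.9 CPM in those of 0 hpi. The groups did not overlap, as for 15.9% of all tested contigs in this direction. The libraries of 0 hpi differed among themselves, with replicate 3 the highest. Its mean was 38.3 ± 10.2 CPM at 6 hpi and 128.5 ± 46 CPM at 0 hpi (SD, n = 3 each), and it fell with a log2 fold change of -1.75 (standard error 0.325, adjusted p = 0.00245 by edgeR's test with Benjamini-Hochberg adjustment).

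The other 3 contigs of the Coagulation factor XIIIb component, each of a Trinity gene of its own, fell by a similar amount. Their log2 fold changes were -1.72 to -1.66, without overlap (as for 15.9% of all tested contigs in this direction). All 4 contigs have whole estimates in every library, so no read was divided between them. The component summed to 84.5, 129.3 and 81.3 CPM at 6 hpi, against 211.8, 340.4 and 417.3 CPM at 0 hpi. Later the sum averaged 4.26 CPM at 18 hpi and 2.73 CPM at 24 hpi. C3/5 and Coagulation factor XIIIb thus moved in opposite directions within 6 h.

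**Figure D4:**
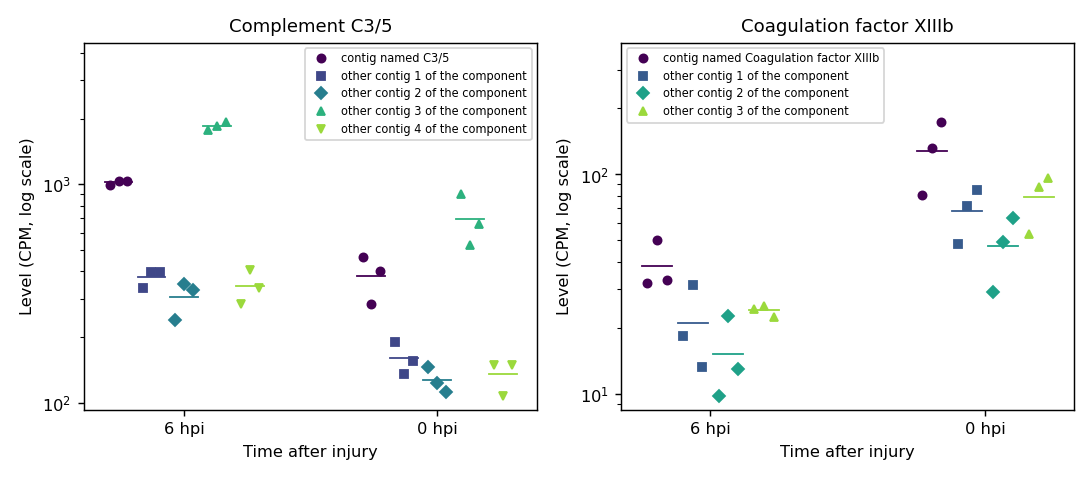
Levels (CPM, log scale) in the 3 libraries of 6 hpi and the 3 of 0 hpi for the contigs named C3/5 and Coagulation factor XIIIb and for the other tested contigs of their Trinity components, with bars at the means. All 5 contigs of the C3/5 component are higher and all 4 of the Coagulation factor XIIIb component lower at 6 hpi, without overlap in any contig. Of all tested contigs 15.5% had every library of 6 hpi above and 15.9% every library of 6 hpi below those of 0 hpi.

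TIE1 and TIE2 are receptors of vertebrate endothelium that respond to angiopoietins and act in the remodelling of vessels, and the Sox7/17/18 transcription factors act in the formation of vertebrate endothelium. The TIE1/2 contig, TRINITY_DN13206_c4_g12_i1.p1, had 10.6, 10.5 and 8.60 CPM at 6 hpi, against 7.13, 5.34 and 7.63 CPM at 0 hpi. These levels did not overlap, as for 15.5% of all tested contigs in this direction (every library of 6 hpi above every library of 0 hpi), but they rest on 72 counts at 6 hpi and 66 at 0 hpi over the groups. The log2 fold change was 0.56 (standard error 0.275) and did not pass (adjusted p = 0.212 by edgeR's test with Benjamini-Hochberg adjustment). None of the other 4 contigs of its component was called, with log2 fold changes of -0.39 to 0.88.

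The Sox7/17/18 contig, TRINITY_DN16425_c0_g1_i6.p1, had 36.5, 52.2 and 47.7 CPM at 6 hpi, against 36.0, 29.1 and 37.6 CPM at 0 hpi. Replicate 1 of 6 hpi lay within the range of 0 hpi, and the reads of this contig were divided in 11 of the 12 libraries. The log2 fold change was 0.41 (standard error 0.202, adjusted p = 0.211 by edgeR's test with Benjamini-Hochberg adjustment) and was not called, nor was either of the other 2 tested contigs of its component, at 0.13 and 0.47. Both vascular regulators had higher means later, with 17.2 CPM at 18 hpi and 13.2 CPM at 24 hpi for TIE1/2 and 77.2 and 66.5 CPM for Sox7/17/18. At 6 hpi a change of the size seen was not distinguishable from the spread between replicates. The Ets-1 contig of the gene trees was not analysed here.

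Among contigs without a name, those with the largest change by fold and by level were taken in each direction, from called contigs with a mean of at least 50 counts and no overlap between groups. Without overlap were 1433 of the 1452 contigs that rose and 1562 of the 1578 that fell. Of all tested contigs 15.5% had every library of 6 hpi above and 15.9% every library of 6 hpi below those of 0 hpi. A call on these same libraries favours groups without overlap, so the numbers for called contigs are a description. The contigs without a name that follow were chosen as the largest changes in these same libraries. Their fold changes, their adjusted p and the distance between their groups go with this choice and are a description too. The largest increase by fold was that of TRINITY_DN14262_c1_g13_i1.p1, with 346.8, 272.0 and 529.1 CPM at 6 hpi, against 3.56, 0 and 1.47 CPM at 0 hpi. It was nearly without counts at 0 hpi, with 15 in the group, and had 2833 at 6 hpi. The log2 fold change was 7.92 (standard error 0.725, adjusted p = 5.03e-05 by edgeR's test with Benjamini-Hochberg adjustment), and it was 9.02 without replicate 1 and 7.27 without replicate 2 of 0 hpi, since the level of 0 hpi rests on few counts. The contig averaged 70.3 CPM at 18 hpi and 255.1 CPM at 24 hpi.

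The other 5 contigs of this component did not follow it as a group. One contig rose with a log2 fold change of 5.02, to 328.0 CPM at 6 hpi against 10.2 CPM at 0 hpi, and another rose with one of 2.20. A further contig fell to 70.2 CPM at 6 hpi, against 279.2 CPM at 0 hpi, with a log2 fold change of -1.99, and the remaining 2, at 0.95 and 0.84, were below the threshold. The component as a whole summed to 1005, 876.1 and 1351 CPM at 6 hpi, against 398.6, 470.3 and 424.9 CPM at 0 hpi, which is 2.50-fold more and far less than the change of TRINITY_DN14262_c1_g13_i1.p1 itself. The 4 contigs that changed have divided reads, in 10 or 11 of the 12 libraries, and the part of this division in their opposite changes was not tested.

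By level the largest increase was that of TRINITY_DN12658_c3_g1_i6.p1, with 6274, 6931 and 6727 CPM at 6 hpi, against 1911, 1422 and 999.0 CPM at 0 hpi. The libraries of 6 hpi were all more than 3 times as high as any library of 0 hpi, on reads that were divided in all 12 libraries. The log2 fold change was 2.20 (standard error 0.242, adjusted p = 1.03e-05 by edgeR's test with Benjamini-Hochberg adjustment). The later means were 593.2 CPM at 18 hpi and 595.5 CPM at 24 hpi, below the 1444 CPM of 0 hpi. Its whole component of 12 contigs summed to 9420, 10160 and 9700 CPM at 6 hpi, against 2786, 2118 and 1516 CPM at 0 hpi, with a contig of another Trinity gene contributing 2648 CPM at 6 hpi and 489.4 CPM at 0 hpi.

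The largest decrease by fold was that of TRINITY_DN16394_c1_g5_i1.p1, which had no count in any library of 6 hpi, against 38.5, 46.1 and 16.4 CPM in those of 0 hpi. With 337 counts at 0 hpi and a floor of 3 counts over the 3 libraries of 6 hpi, it was at least 82.5-fold lower at 6 hpi (adjusted p = 0.00523 by edgeR's test with Benjamini-Hochberg adjustment). The floor covers counting error only, and not the way reads were divided between this contig and the other contig of its Trinity gene. The other contig of its Trinity gene remained at 75 CPM at 6 hpi, against 231.5 CPM at 0 hpi, a log2 fold change of -1.63, so the gene as assembled was lowered 3.54-fold and not lost. In this gene, too, reads were divided, in 6 of the 12 libraries.

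By level the largest decrease was that of TRINITY_DN13302_c0_g1_i2.p1, with 786.1, 1414 and 794.9 CPM at 6 hpi, against 4757, 2806 and 3473 CPM at 0 hpi. The lowest library of 0 hpi was still well above the highest of 6 hpi, on reads that were divided in all 12 libraries. The log2 fold change was -1.88 (standard error 0.304, adjusted p = 0.000505 by edgeR's test with Benjamini-Hochberg adjustment). The other 5 contigs of its Trinity gene fell alike, with log2 fold changes of -1.98 to -1.85, and the gene summed to 2034, 3775 and 2041 CPM at 6 hpi, against 12360, 7662 and 9130 CPM at 0 hpi. The sum was lower again later, with means of 1296 CPM at 18 hpi and 930.3 CPM at 24 hpi.

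**Figure D5:**
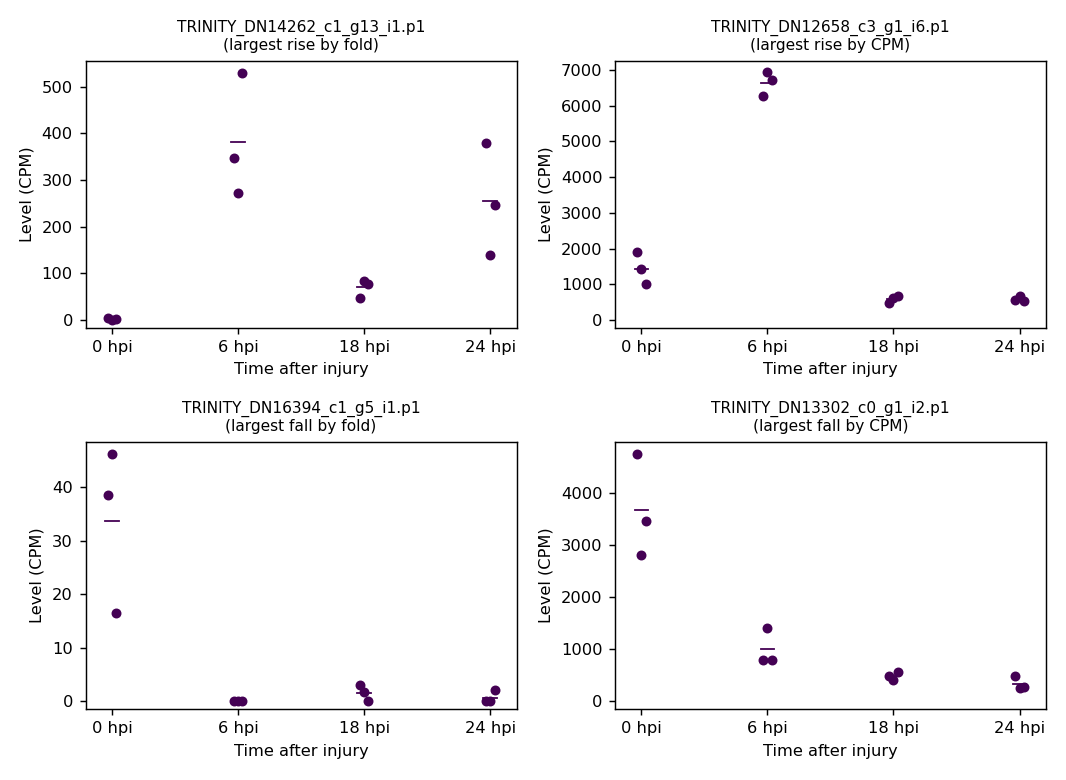
Levels (CPM) of the 4 contigs without a name in the 3 libraries of each time after injury, with bars at the means. TRINITY_DN12658_c3_g1_i6.p1 reaches 6274 to 6931 CPM at 6 hpi, and TRINITY_DN16394_c1_g5_i1.p1 is at 0 in all libraries of 6 hpi.

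The strongest decreases were uneven among the libraries of 0 hpi. Of the 202 contigs that fell by more than 16-fold, replicate 3 of 0 hpi was the lowest of the 3 libraries in 169 (83.7%), whereas it was the lowest in 744 (47.1%) of all contigs that fell and in 34.1% of all tested contigs. Summed over the 202 contigs, the 0 hpi level was 16830 CPM in replicate 1, 15420 CPM in replicate 2 and 8605 CPM in replicate 3. The total of replicate 3, at 3465156 counts, lay between those of the other 0 hpi libraries. With this library left out 251 contigs fell by more than 16-fold, against 171 with replicate 1 and 179 with replicate 2 of 0 hpi left out. The larger number goes with the low level of this library in such contigs and is not a separate observation. Whether a property of this colony or library moves with these decreases was not tested. Coagulation factor XIIIb was not of this kind, since replicate 3 had its highest level. Of the 66 contigs that rose by more than 16-fold, replicate 1 of 6 hpi was the lowest of its group in 18, replicate 2 in 31 and replicate 3 in 17, and their summed level was 6339, 5479 and 6375 CPM in these libraries.

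Contigs seen at only 1 of the 2 time points were few and mostly of low count. Without any count at 0 hpi were 40 contigs that had counts at 6 hpi, with at most 59 counts over the group. Of these 16 were tested and 4 called higher, where 4.63% of all tested contigs were called higher. Without any count at 6 hpi were 76 contigs that had counts at 0 hpi, with up to 337 counts. Of these 36 were tested and 21 called lower, where 5.03% of all tested contigs were called lower. Such contigs could pass the filter on low counts only through libraries in which they were present, so these counts are a description. At an equal depth of 2397285 counts, 31933, 31921 and 31884 contigs were detected in the libraries of 6 hpi, against 32104, 32108 and 32066 in those of 0 hpi. All libraries of 6 hpi had fewer, by 180 contigs on average, with p = 0.1 in a two-sided exact permutation test, the smallest p that 3 libraries against 3 allow. The percentage of counts in the 10 most abundant contigs was 6.10 ± 0.271 at 6 hpi and 5.72 ± 0.338 at 0 hpi (SD, n = 3 each), a difference of 0.385 within the spread (two-sided exact permutation test, p = 0.3), and the difference changed sign for the 100 most abundant contigs (18.8 ± 0.573% at 6 hpi and 19.3 ± 0.588% at 0 hpi).

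The balance of directions differed between contigs with whole and with divided estimates. Of the 22095 tested contigs with whole estimates in all 12 libraries, 832 were higher and 1160 lower at 6 hpi, in all 9.02%. Of the 9288 contigs with divided reads in at least 1 library, 620 were higher and 418 lower, in all 11.2%. Over all tested contigs 4.63% were higher and 5.03% lower, in all 9.65%. Contigs of a component are not independent. The components with the most decreases held 29 and 23 lower contigs, and only 4 of 36 and 2 of 23 of their tested contigs had divided reads. Both sets had a like median level, of 13.7 CPM for divided and 13.2 CPM for whole estimates over the 12 libraries, and whether the division of reads has a part in the difference was not tested. With counts summed per Trinity gene, 1210 genes were higher and 1364 lower.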

How the data were processed

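RNA of 12 colonies was sequenced, 3 at each of 0, 6, 18 and 24 hpi. The authors removed ribosomal reads (SortMeRNA 2.1), trimmed (Trimmomatic 0.30), assembled de novo (Trinity 2.11.0), kept the best open reading frame per contig (TransDecoder 5.5.0, at least 90 amino acids), collapsed similar transcripts (cd-hit-est 4.6) and deposited estimated counts per contig from Kallisto 0.43.1, without normalization and without pooling of replicates.

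Estimated counts were rounded for edgeR 4.0.16 in R 4.3.3, scaled by TMM and filtered by filterByExpr on the 4 time points. The robust quasi-likelihood fit held all 12 libraries without a covariate, tested on simulated data, and the contrast was 6 minus 0 hpi with Benjamini-Hochberg adjustment over 31383 contigs. The standard error was taken as the size of the log2 fold change over the root of the F statistic. Detection at equal depth is the expected number of contigs with a count after random thinning to the smallest library. No replicates were the same library (chi-square per degree of freedom at least 3.10).

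Named contigs are those that the study's gene trees pair with a gene, with the contigs of their component, and, without a name, the called contig with a mean of at least 50 counts and no overlap that changed most by fold and by CPM in each direction. The TIE1/2 label is incomplete in the source, and its contig is the only 1 of its Trinity gene. The comparison, its members and these rules were chosen with earlier results of these data known. The results were recomputed with DESeq2 1.42.0 and limma 3.58.1, with other scalings, filters and thresholds, with the replicate number as a block, without each library in turn, without the 10 most abundant contigs, on thinned counts and on counts per Trinity gene. The alternatives for the number of more than 16-fold decreases were chosen after seeing the data. The study named its contigs by their best human match, but the part of that annotation used here pairs no contig with a gene, so enrichment of functions was not run. No sequence of the contigs was used here.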

Additional observations from a re-analysis of the deposited data

How the results depend on the processing

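The counts of 1452 higher and 1578 lower contigs stayed within 1.5 times under all alternatives run but 1, edgeR's glmTreat, which tests against an absolute log2 fold change of 1 and called 445 higher and 472 lower. With single libraries left out, 1272 to 1406 were higher and 1239 to 1448 lower. DESeq2 called 1425 higher and 1670 lower, and 2893 of its calls were also edgeR calls. The replicate block gave 1426 higher and 1482 lower. Libraries of the same number showed no shared deviation from their group means, with correlations of 0.012, -0.03 and 0.00189. Whether the numbers pair the colonies in their handling is not known. The number of contigs that fell by more than 16-fold, 202, was 125 with limma-voom and 128 Trinity genes in a fit on counts summed per gene. The number that rose by more than 16-fold was not recomputed, so the excess of large decreases was not examined under the alternatives. C3/5 stayed called higher, at 1.25 to 1.60 (log2), and Coagulation factor XIIIb called lower, at -1.98 to -1.47, in all 17 alternatives run for each, with adjusted p by these tools of at most 0.000946 and 0.0174. TIE1/2 (0.41 to 0.68) and Sox7/17/18 (0.30 to 0.55) were called in none of theirs. The 4 contigs without a name stayed called, and for TRINITY_DN12658_c3_g1_i6.p1 the fit without the 10 most abundant contigs could not be run, as it is one of them. The difference in contigs detected at equal depth was -193 to -166 with single libraries left out and -347 for contigs with at least 5 counts. That in the percentage of counts of the 10 most abundant contigs was 0.214 (without replicate 3 of 0 hpi) to 0.551 (without replicate 2 of 0 hpi), and it reversed to -0.558 for the 100 most abundant contigs and -0.313 for the 10 most abundant Trinity genes. The cause was not tested. For TIE1/2, on 72 counts at 6 hpi and 66 at 0 hpi, a change of the size seen did not pass. Sox7/17/18, on 332 counts at 6 hpi and 338 at 0 hpi, did not pass either. The standard error was larger among contigs of low level, but the part of depth in these 2 results was not tested.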
